A study of Mus musculus with 7 samples.

Results

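The antigen receptor gene loci are the stretches of the genome from which immunoglobulins and T-cell receptors are assembled. Peaks of open chromatin were assigned to a locus when their midpoint lay inside its mm9 interval: Igh, the immunoglobulin heavy chain (114.45 to 117.3 Mb of chromosome 12), Igk and Igl, the kappa and lambda light chains (67.45 to 70.7 Mb of chromosome 6 and 19.02 to 19.27 Mb of chromosome 16), Tcra/d, the T-cell receptor alpha locus with the delta locus nested inside it (53 to 54.9 Mb of chromosome 14), Tcrb (40.8 to 41.55 Mb of chromosome 6) and Tcrg (19.22 to 19.48 Mb of chromosome 13). This gave 360 of the 98723 peaks of the table. Tcra/d held 159 of them, Igh 134, Tcrb 33, Igk 20, Tcrg 14 and Igl 0. The loci were chosen after the contrast between the vectors had been examined on these libraries, when many lower peaks were already known between 116 and 117 Mb of chromosome 12. Every value of that contrast below is therefore a description, and nothing is supported with it.

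The cells were haematopoietic stem cells, the bone marrow cells that renew all blood lineages. Marrow enriched for cKit came from C57BL/6 donors aged 24 months and was infected with a lentivirus. The 4 control libraries, numbered 1 to 4, came from cells given the control vector (labelled EV), and the 3 Runx3 libraries, numbered 1, 3 and 4, from cells given a vector expressing Runx3, a RUNX-family transcription factor. All recipients were lethally irradiated, and 16 weeks after transplantation transduced donor cells were sorted for Omni-ATAC-seq, an assay that marks accessible DNA by letting a transposase insert sequencing adapters. The sorted cells were LSK cells positive for CD150, CD45.2 and hCD2 and negative for Flt3 and CD48. Both groups thus share the donor age, the infection and the transplantation, and neither is an untreated stem cell. The promoter driving Runx3 is not given in the sources used here, nor is whether libraries came from separate recipients, so the spread between libraries may be partly technical. The table lists positions without gene names, and the sorted identity was not checked against marker genes here.

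These loci are built of variable (V), joining (J) and constant (C) segments, with diversity (D) segments in Igh, Tcrb and the delta locus. In Igh, Igk and Tcra a long V array lies to one side of the J and C segments, whereas Igl and Tcrg consist of repeated V, J and C clusters. In developing lymphocytes the RAG recombinase cuts at the edges of the segments, and V(D)J recombination joins a few of them into a working gene. Igh and Igk rearrange in B-cell precursors and the T-cell receptor loci in thymocytes, whereas stem cells carry them in the germline order. The opening of the long V arrays, of Igh above all, is known as a controlled step of lymphocyte development, and RUNX proteins bind enhancers of several T-cell receptor loci.

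In a RefSeq gene table of the later build GRCm38.p6, used for names and neighbours only, Igh runs from Igha at its constant end to Ighv1-86, with 183 segments named Ighv and 32 others, and Zfp386 follows. The same table names 162 Igkv segments, 3 Iglv, 136 Trav or Trdv, 35 Trbv and 7 Trgv. No peak could be given to a segment by name, because the peaks are in mm9. Igh was divided at 114.75 Mb of chromosome 12, with 12 peaks at the constant end (the side of the C, J and D segments) and 122 in the variable part.

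The libraries held 1738164 to 3758422 reads in peaks, and the antigen receptor peaks took 0.191% to 0.245% of them. Levels are in CPM, the reads of a peak scaled to the library's reads in all peaks after TMM normalization. Across libraries, 3 reads correspond to 0.798 to 1.73 CPM. The members were shallow peaks, with a median level of 3.18 CPM against 4.33 CPM for all peaks and a median width of 323 bases against 388. After the filter on low counts 163 of 360 members (45.3%) were tested, against 58.2% of all peaks. The division of libraries into control 1, control 2 and Runx3 1 on one side and the other 4 on the other separated 57 peaks of the table by at least 8-fold, whereas any other division separated at most 2. This division comes from the data and not from the labels, and values within each side are given where they differ.

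The intervals of the loci differed in how much open chromatin they held, over the 7 libraries of both groups. Their levels include strong peaks near the interval bounds. Whether these lie at receptor segments or at neighbouring genes could not be told without an mm9 annotation. Tcra/d had 83.7 peaks per Mb, Tcrg 53.8, the Igh variable part 47.8, Tcrb 44 and the Igh constant end 40. Igk had 6.15 peaks per Mb, whereas chromosome 6, which carries it, had 38.3. No peak was listed in the 0.25 Mb of Igl. The peaks nearest to it were chr16:18915594-18915896 and chr16:19671107-19671382, both outside, and the table gives no read count between them.

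Per Mb, accessibility in Tcra/d was 2.57-fold that of the Igh variable part and in Tcrb 1.25-fold, each higher in 7 of 7 libraries. Igk was 3.94-fold lower than the Igh variable part in 7 of 7 libraries. Per peak, the Igh variable part was 1.93-fold lower than the Igh constant end in 7 of 7 libraries. Each of these 4 differences had p = 0.0156 in an exact two-sided permutation test over the 7 libraries, the smallest value that 128 sign changes can give, and an adjusted p of 0.0195 over 5 pairs. Tcrg was 1.14-fold above the Igh variable part in 5 of 7 libraries, and this difference did not pass the exact test (p = 0.109, adjusted p = 0.109). In the controls alone the folds over the Igh variable part were 2.44 for Tcra/d, 1.10 for Tcrb and 1.02 for Tcrg, and in the Runx3 libraries alone 2.75, 1.48 and 1.32. Igk was 4.30-fold lower in controls and 3.52-fold lower in Runx3 libraries, and the variable part per peak was 1.77-fold and 2.15-fold lower than the constant end. The pooled folds and their p-values therefore include the lower Igh variable level of the Runx3 libraries. The Tcrb fold ran from 1.05 to 1.17 over the controls and from 1.39 to 1.64 over the Runx3 libraries. The first peak inside the Tcrb interval, chr6:40840901-40842089, held 52.3 of 196 CPM in controls and 49.0 of 203 CPM in Runx3 libraries. Whether Tcrb stays above the Igh variable part without this peak was not tested, so its fold may not describe the rest of the locus. The permutation test takes the libraries as independent, which the sources used here do not establish. It shows only that a ratio recurred across these libraries. These sums also move with how many peaks were called in a repeated array, which was not tested.

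Between the vectors, the Igh variable part was the stretch with the lowest level in Runx3 libraries relative to controls. Its 122 peaks summed to 535, 654, 692 and 540 CPM in controls 1 to 4, and to 450, 452 and 495 CPM in Runx3 libraries 1, 3 and 4. All 3 Runx3 libraries were below all 4 controls, and controls 1 and 4 were the nearest to them. The means were 605 ± 79.6 CPM (SD, n = 4) and 466 ± 25.1 CPM (SD, n = 3), a log2 difference of -0.38. The difference was -0.40 among control 1, control 2 and Runx3 1 and -0.38 among the other 4 libraries. Controls 1 to 4 held 2188113, 2799286, 3709974 and 3758422 reads, and Runx3 libraries 1, 3 and 4 held 1738164, 2576715 and 2401700. Every Runx3 library was thus shallower than controls 2, 3 and 4, and depth as a cause was not tested. A bulk library cannot tell fewer cells with an open site from less opening in each cell.

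The constant end of Igh, on the side of the C, J and D segments, did not show such a separation. Its strongest peak lay at -289 kb from the boundary, near the lower bound of the interval. Whether its peaks lie at those segments or outside them could not be told without an mm9 annotation. Its 12 peaks summed to 128, 96.3, 105 and 93.0 CPM in the controls and to 88.0, 102 and 107 CPM in the Runx3 libraries. The groups overlapped, with control 1 the highest and Runx3 1 the lowest, and the log2 difference was -0.09. It was -0.35 among control 1, control 2 and Runx3 1 and 0.080 among the other 4 libraries. The 500 kb below the locus and the 500 kb above it differed by -0.02 and -0.04, and in both the groups overlapped.

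The ratio of the variable part to the constant end, on the log2 scale, was 2.06, 2.76, 2.73 and 2.54 in the controls and 2.36, 2.15 and 2.21 in the Runx3 libraries. Control 1 had the lowest ratio of all 7 libraries, so the groups overlapped. The means were 2.52 ± 0.32 (SD, n = 4) and 2.24 ± 0.11 (SD, n = 3), a difference of -0.28. That difference was -0.06 among control 1, control 2 and Runx3 1, -0.45 among the other 4 libraries, and -0.44 without control 1.

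**Figure D1:**
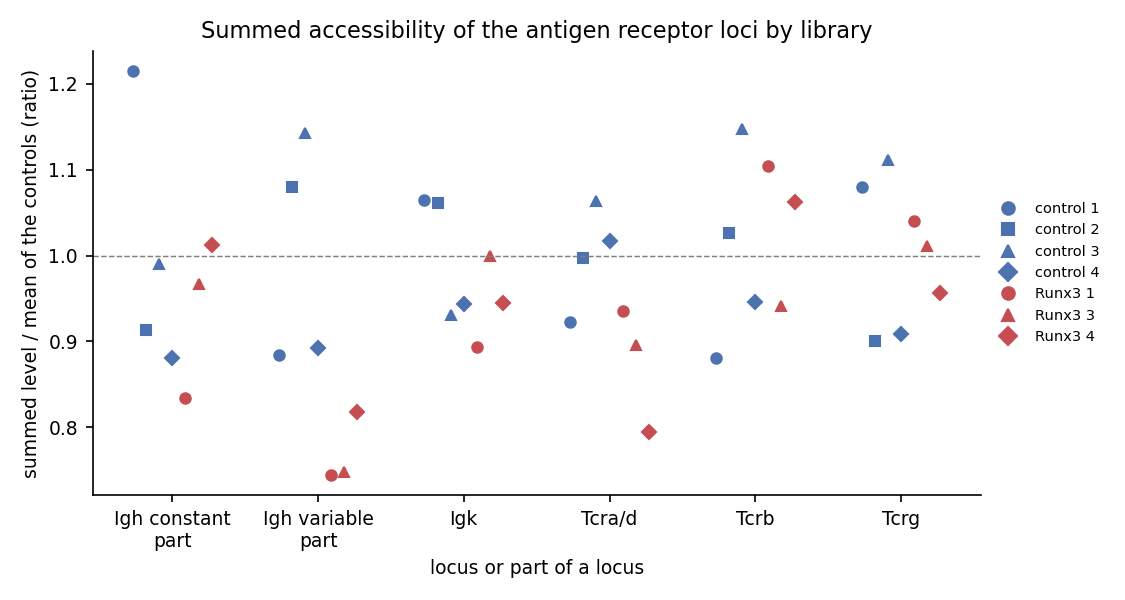
Summed CPM of each locus, or part of Igh, in each library divided by the mean of the 4 controls (vertical axis, ratio; blue controls, red Runx3 libraries, one symbol per library number, dashed line at the control mean). The Runx3 libraries lie below every control in the Igh variable part (450 to 495 against 535 to 692 CPM) and overlap the controls elsewhere.

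The Tcra/d interval had the next largest difference. Tcra/d summed to 1009, 1090, 1164 and 1112 CPM in the controls and to 1023, 979 and 869 CPM in the Runx3 libraries. Runx3 1 lay above control 1, so the groups overlapped, and Runx3 4 was the lowest library. The log2 difference was -0.19, and it was -0.13 without Runx3 4. It was -0.036 among control 1, control 2 and Runx3 1, and -0.30 among the other 4 libraries.

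The remaining loci differed little. Igk summed to 179 ± 13 CPM in controls and 169 ± 9.48 CPM in Runx3 libraries (SD, n = 4 and 3), a log2 difference of -0.08, which was -0.25 among control 1, control 2 and Runx3 1 and 0.053 among the other libraries. Tcrb, which encodes the beta chain, summed to 196 ± 22.6 and 203 ± 16.6 CPM, a log2 difference of 0.05 that was 0.21 among control 1, control 2 and Runx3 1 and -0.063 among the other libraries. Tcrg, the gamma chain locus, summed to 62.6 ± 6.97 and 62.8 ± 2.69 CPM, a log2 difference of 0.00. In all 3 loci the groups overlapped.

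Peak by peak, edgeR's quasi-likelihood test over the whole table called 2 of the 163 tested members lower with Runx3 and 0 higher at an adjusted p under 0.05. Over all tested peaks 0.0400% were called lower and 0.0330% higher. Both called members were in the Igh variable part. At an unadjusted p under 0.05, 31 members were lower and 0 higher, against 4.39% and 3.91% of all tested peaks. In 24 of the tested members every Runx3 library was below every control and in 1 every Runx3 library was above, against 4.58% and 4.36% of all tested peaks. With untested peaks included these were 38 and 6 of the 360 members, against 4.16% and 4.44% of all peaks. Since the loci were chosen on this contrast, nothing is read from these shares.

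The counts were spread unevenly over the loci. In the Igh variable part 36 of 42 tested peaks had a log2 fold change below 0, with a median of -0.44, and 17 were lower at an unadjusted p under 0.05. In Tcra/d these were 60 of 79 peaks, a median of -0.19 and 12 peaks. Over all tested peaks 51.2% had a log2 fold change below 0, 4.39% were lower at that p, and the median was -0.01. In Igk 6 of 9 tested peaks were below 0 (median -0.12), in Tcrb 11 of 20 (median -0.01), in Tcrg 2 of 5 (median 0.16) and at the Igh constant end 4 of 8 (median -0.02). The Igh constant end had 2 peaks lower at an unadjusted p under 0.05, and Igk, Tcrb and Tcrg had 0.

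The 80 peaks of the Igh variable part that did not pass the filter summed to 175 ± 20.9 CPM in controls and 143 ± 20.1 CPM in Runx3 libraries (SD, n = 4 and 3), a log2 difference of -0.29, and the groups overlapped. A peak can pass that filter through its control reads alone, so the filter partly sets the difference between these sums. The 42 tested peaks summed to 430 ± 65.0 and 323 ± 5.82 CPM, a log2 difference of -0.41, without overlap. Among those 42, control 3 had the highest level of all 7 libraries in 19 peaks and control 2 in 12. Runx3 1 had the lowest level in 13, Runx3 3 in 12, control 1 in 9 and Runx3 4 in 6. Over all tested peaks control 3 was highest in 12.7% and control 2 in 12.8%, and these 4 libraries were lowest in 16.7%, 13.2%, 20.5% and 14.2%.

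**Figure D2:**
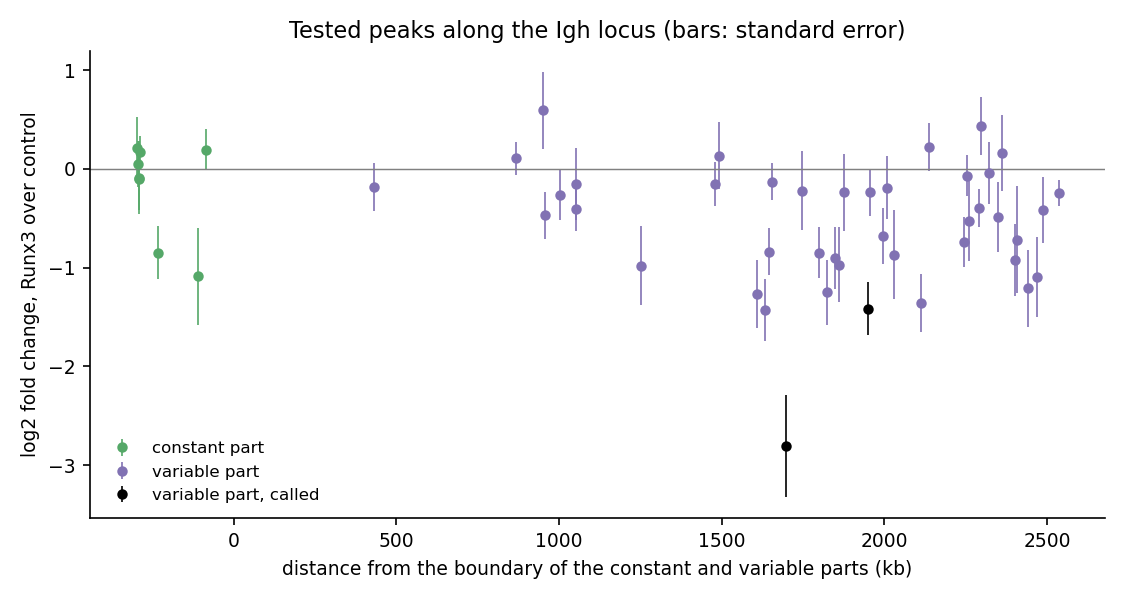
Log2 fold change of Runx3 over control with its standard error (vertical axis) for the 8 tested peaks of the Igh constant end and the 42 of the variable part, by distance from the boundary between them (horizontal axis, kb). Of the variable peaks 36 lie below 0, and the called peaks, in black, lie at -2.81 and -1.42.

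Along the Igh variable part the difference was uneven. In the first 500 kb from the boundary the log2 difference of the summed level was -0.27, and from 500 to 1000 kb it was -0.04, with overlap of the groups in both. From 1000 to 1500 kb it was -0.36, and every Runx3 library was below every control. The lowest log2 difference came from 1500 to 2000 kb, deep in the V array. There 36 peaks summed to 149, 214, 230 and 164 CPM in the controls and to 102, 125 and 135 CPM in the Runx3 libraries. All Runx3 libraries were again below all controls. This window lies wholly inside the stretch already known to hold many lower peaks when the loci were chosen. The windows on both sides lie partly inside that stretch. The difference in the window from 1500 to 2000 kb is therefore a description only, and not a new location.

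In that window the means were 189 ± 38.8 and 121 ± 17.0 CPM (SD, n = 4 and 3), a log2 difference of -0.65. All 14 of its tested peaks had a log2 fold change below 0, and 10 were lower at an unadjusted p under 0.05. From 2000 to 2500 kb the log2 difference was -0.32, and Runx3 1 lay above control 1. There 14 of 17 tested peaks were below 0, and 6 were lower at an unadjusted p under 0.05. Over all tested peaks 51.2% were below 0 and 4.39% were lower at that threshold. A peak can pass the count filter through its control reads alone, so the counts of both windows are a description only.

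The stretch between 116 and 117 Mb, known to be lower when the loci were chosen, summed to 288 ± 52.5 CPM in controls and 197 ± 22.1 CPM in Runx3 libraries, a log2 difference of -0.55. Without it, a choice made after seeing the data, the other 66 peaks of the variable part summed to 317 ± 28.7 and 269 ± 13.7 CPM (SD, n = 4 and 3). Their log2 difference was -0.24, and every Runx3 library remained below every control.

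**Figure D3:**
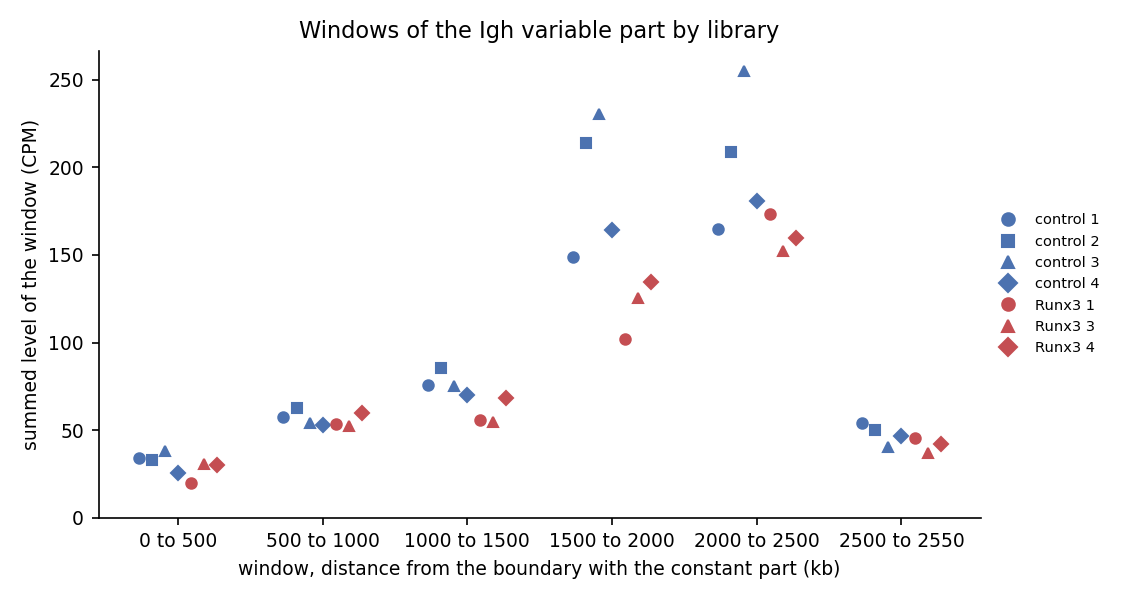
Summed CPM of the member peaks in windows of 500 kb along the Igh variable part (horizontal axis, distance from the boundary with the constant part in kb; the last window is 50 kb), one symbol per library, controls in blue and Runx3 libraries in red. The groups separate from 1000 to 1500 kb and from 1500 to 2000 kb, where the means are 189 and 121 CPM, and overlap in the other windows. The window from 1500 to 2000 kb lies inside the stretch already known to hold many lower peaks when the loci were chosen. The windows on both sides of it lie partly inside that stretch.

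The called peak with the larger change was chr12:116446187-116446481, a narrow peak in the V array. It held 8, 19, 36 and 19 reads in the controls and 1, 1 and 4 reads in the Runx3 libraries, or 3.78, 6.78, 9.60 and 5.0 CPM against 0.572, 0.386 and 1.66 CPM. Every Runx3 library was below every control, and Runx3 1 and Runx3 3 were under the level of 3 reads. The fitted log2 fold change was -2.81 ± 0.51 (SE), with an adjusted p of 0.0201 by edgeR, and at so few reads it depends on the fit.

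The other called peak, chr12:116699016-116699724, was open in every library. Its level was 10.4, 14.3, 17.1 and 11.6 CPM in the controls and 5.14, 5.41 and 4.57 CPM in the Runx3 libraries. The Runx3 libraries were close together and all below the lowest control, control 1. The log2 fold change was -1.42 ± 0.27 (SE), with an adjusted p of 0.0203 by edgeR. Neither peak was called when the total of each library was added to the fit as a covariate: the log2 fold changes were then -2.37 and -1.23, with adjusted p of 0.127 and 0.140 by edgeR.

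Leaving out control 2, control 3, Runx3 1 or Runx3 3 left no member called. The shares called lower and higher over the table were then 0.00% and 0.00% without control 2, 0.00185% and 0.00742% without control 3, 0.00% and 0.00% without Runx3 1, and 0.00649% and 0.0454% without Runx3 3. Without control 4, 2 members were called lower, against 0.0458% lower and 0.0788% higher, and without Runx3 4, 1 was, against 0.00321% and 0.00802%. The peak with the larger change fell under the count filter without control 2, 3 or 4 and was not tested there. Without control 1, 7 members were called lower and 0 higher, against 0.339% and 0.127% of tested peaks. DESeq2 called 0 members, against 0.00174% lower and 0.00870% higher over the table, and limma-voom called 0, against 0.00% and 0.00870%. Without the low-count filter 5 members were called lower and 1 higher, against 0.0324% and 0.0415% of all peaks. With the library total as a covariate 1 member was lower, the Igk peak described later, against 0.0887% lower and 0.0574% higher. With the division of the libraries as a term 4 were lower, against 0.0504% and 0.0383%, and with the replicate number as a block 3 were lower, against 0.123% and 0.0522%. The member called higher without the filter, chr12:116513691-116513890, held 12 reads in Runx3 4 and 0 in every control.

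Just outside the threshold lay chr12:116383511-116384105, at 7.10, 12.1, 13.1 and 8.69 CPM in the controls and 2.86, 4.25 and 4.16 CPM in the Runx3 libraries. Its log2 fold change was -1.43 ± 0.31 (SE), with an adjusted p of 0.0504 by edgeR. The next, chr12:116860868-116861649, had 8.04, 12.8, 21.3 and 12.4 CPM in the controls and 5.72, 4.25 and 6.65 CPM in the Runx3 libraries. In both peaks all Runx3 libraries were below all controls, as in the called ones. The peak chr12:116573120-116573447 had 4.73, 11.8, 12.3 and 9.48 CPM in the controls and 2.29, 4.64 and 4.99 CPM in the Runx3 libraries, and there control 1 lay below Runx3 4.

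Not every strong peak of the variable part was lower. The strongest, chr12:117285466-117286401 near the far end, had 46.4 ± 4.74 CPM in controls and 39.3 ± 3.43 CPM in Runx3 libraries (SD, n = 4 and 3). The groups overlapped, since Runx3 1 lay above control 3. Its log2 fold change was -0.24 ± 0.13 (SE). Whether it lies at a V segment or at Zfp386, the gene that follows, could not be told without an mm9 annotation. Without this peak the log2 difference of the variable sum was -0.39, and every Runx3 library was below every control. The peak chr12:115616677-115617822 had 22.7 ± 1.06 and 24.1 ± 4.94 CPM (SD, n = 4 and 3) and a log2 fold change of 0.11 ± 0.17 (SE). The peak chr12:116403589-116404220 between the lower peaks just named had 21.5 ± 5.44 and 20.1 ± 1.74 CPM and a log2 fold change of -0.13 ± 0.19 (SE).

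**Figure D4:**
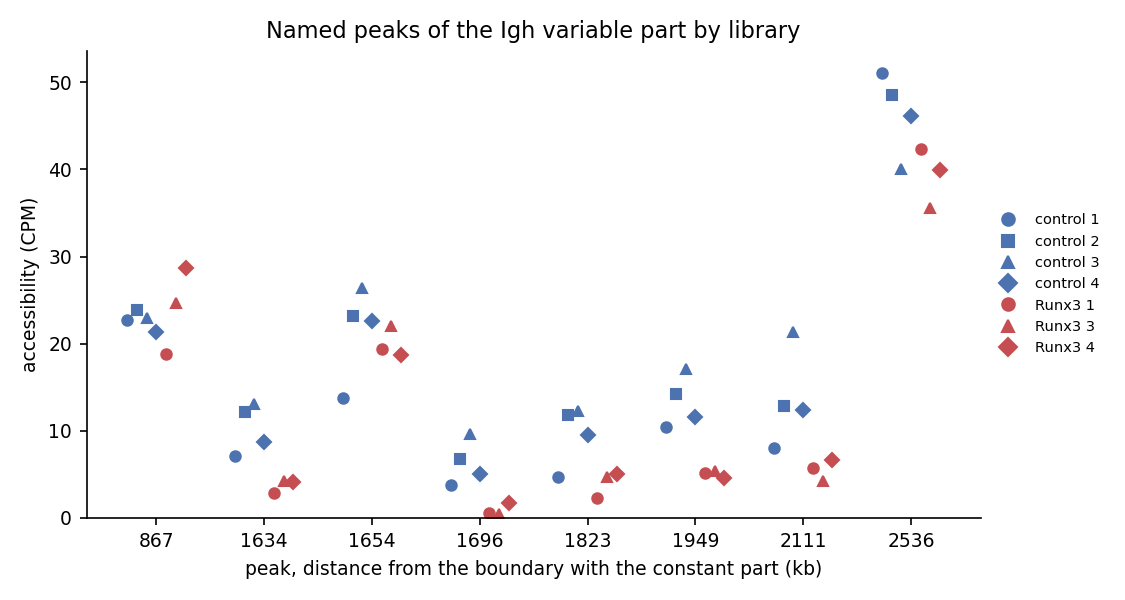
CPM of the named peaks of the Igh variable part in each library (horizontal axis, distance of the peak from the boundary with the constant part in kb; controls in blue, Runx3 libraries in red). The called peaks separate the groups, at 3.78 to 9.60 against 0.386 to 1.66 CPM and at 10.4 to 17.1 against 4.57 to 5.41 CPM, whereas the 3 strongest peaks overlap.

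At the constant end, the strongest peak was chr12:114460265-114461228, at 25.7 ± 5.62 CPM in controls and 28.6 ± 3.51 CPM in Runx3 libraries (SD, n = 4 and 3), with a log2 fold change of 0.17 ± 0.17 (SE). A single tested peak there had every Runx3 library below every control, chr12:114515920-114516564. It had 9.46, 16.4, 15.2 and 8.69 CPM in the controls and 5.14, 8.11 and 7.07 CPM in the Runx3 libraries. Control 4 and Runx3 3 were close, and the log2 fold change of -0.85 ± 0.27 (SE) was not called (adjusted p = 0.286 by edgeR). Among untested peaks there, chr12:114455613-114455817 and chr12:114725919-114726237 also had every Runx3 library below every control, as did 4.16% of all peaks. Their means were 4.35 and 3.85 CPM in controls and 2.19 and 1.66 CPM in Runx3 libraries. The lowest fitted value at the constant end was that of chr12:114641079-114641460, with 4.26, 5.35, 5.07 and 2.11 CPM in the controls and 1.14, 2.70 and 1.66 CPM in the Runx3 libraries. Control 4 lay below Runx3 3, and the log2 fold change of -1.09 ± 0.49 (SE) was not called (adjusted p = 0.531 by edgeR). The peaks chr12:114662474-114663567 and chr12:114458594-114459040 had log2 fold changes of 0.20 ± 0.20 and -0.10 ± 0.31 (SE).

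In Tcra/d the V array comes first and the J and C segments lie at the far end, with Dad1 next in the RefSeq table. In the first 500 kb the log2 difference of the summed level was -0.22 and in the second 500 kb it was -0.29, with every Runx3 library below every control in both. The separation in the first was slight, with 107.9 CPM in control 1 and 107.5 CPM in Runx3 1. In the second of these, 62 peaks summed to 394, 430, 465 and 427 CPM in the controls and 389, 370 and 294 CPM in the Runx3 libraries. Runx3 1 and control 1 were nearly equal and Runx3 4 stood lowest.

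In the third 500 kb the log2 difference was -0.19 and in the rest of the locus it was -0.05, with overlap in both. The last window held the 3 strongest peaks of the interval. Which of them lie at T-cell receptor segments and which at Dad1 or beyond could not be told without an mm9 annotation. The strongest, chr14:54846778-54848120, had 76.7 ± 6.18 CPM in controls and 71.8 ± 6.06 CPM in Runx3 libraries (SD, n = 4 and 3), a log2 fold change of -0.10 ± 0.12 (SE). The peaks chr14:54873153-54874162 and chr14:54878632-54879664 had log2 fold changes of -0.06 ± 0.12 and -0.10 ± 0.14 (SE). Runx3 4 had the lowest level of all 7 libraries in 27 of the 79 tested Tcra/d peaks (34.2%, against 14.2% of all tested peaks).

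Part of the Tcra/d signal lay in pairs of peaks alike in width and reads. In 13 pairs, 26 peaks in all, a peak had a partner of the same width within 20 bases lying 310937 to 311189 bases further along, and these peaks held 24.3% of the Tcra/d CPM. The partners tracked each other library by library. The peak chr14:53608176-53608607 held 51, 66, 133 and 131 reads in the controls and 50, 75 and 52 in the Runx3 libraries, and its partner chr14:53919344-53919775 held 34, 72, 136 and 130 and then 52, 80 and 54. Over the 13 pairs the chi-square per degree of freedom between partners ran from 0.0582 to 0.687 with a median of 0.216, less than independent read counts would give.

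Such peaks cannot be taken as separate measurements. Their sequences were not compared, and how reads matching several places were placed is not given in the sources used here. Of the 12 Tcra/d peaks lower at an unadjusted p under 0.05, 6 were in such pairs, forming 3 pairs with both partners lower. The partners chr14:53519353-53519720 and chr14:53830290-53830657 had log2 fold changes of -0.99 ± 0.30 and -1.03 ± 0.29 (SE). Within a pair with both partners tested, the log2 fold changes differed by at most 0.15. With each pair counted once, a choice made after seeing the data, the log2 difference of the Tcra/d sum was -0.17. The most peak pairs sharing a distance within 300 bases was 20 in Tcra/d, 9 in Igh, 4 in Tcrb, 2 in Igk and 2 in Tcrg.

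**Figure D5:**
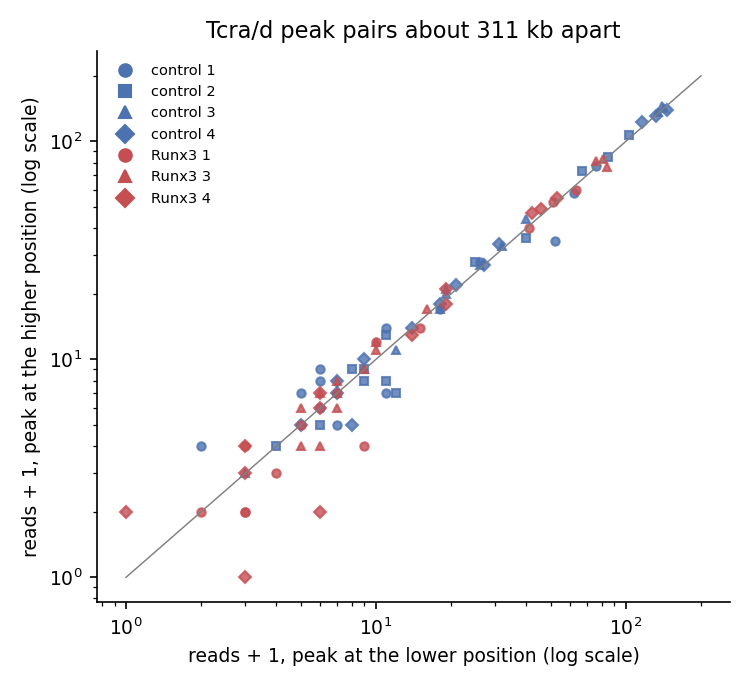
Reads + 1 in the 13 pairs of Tcra/d peaks 310937 to 311189 bases apart, the peak at the lower position (horizontal, log scale) against its partner (vertical, log scale), 1 symbol per pair and library, with the line of equal reads. The points follow the line, with a chi-square of at most 0.687 per degree of freedom between partners.

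Outside these pairs, the Tcra/d peak with the lowest fitted value was chr14:53666679-53667055. It had 4.73, 8.92, 8.53 and 6.06 CPM in the controls and 5.14, 3.09 and 1.25 CPM in the Runx3 libraries. Runx3 1 lay above control 1, and the log2 fold change of -1.25 ± 0.38 (SE) was not called (adjusted p = 0.242 by edgeR).

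Igk held few peaks, and 10 of its 20 lay in the first 500 kb. The strongest, chr6:67482559-67483511, had 54.6 ± 6.37 CPM in controls and 54.8 ± 14 CPM in Runx3 libraries (SD, n = 4 and 3). The peak chr6:67649092-67649476 had 14.7 ± 3.43 CPM in controls (SD, n = 4) and overlapping values in Runx3 libraries, with a log2 fold change of -0.27 ± 0.23 (SE). The isolated peak chr6:69466252-69466617 had 50.1, 41.4, 13.3 and 18.7 CPM in the controls and 25.7, 17.0 and 18.3 CPM in the Runx3 libraries. The high values were those of controls 1 and 2, and the log2 fold change was -0.55 ± 0.59 (SE). With the library total as a covariate it was -1.38, with an adjusted p of 0.000103 by edgeR. Between 68450001 and 68950000, a window singled out after its values were seen, 2 peaks under the filter together held 1, 2, 9 and 6 reads in the controls and 6, 11 and 13 in the Runx3 libraries, and scaled for depth every Runx3 library was above every control.

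In Tcrb, whose V array encloses trypsin-family genes such as Prss1 and Try4 in mouse, the strongest peak was chr6:40840901-40842089. It had 52.3 ± 7.56 CPM in controls and 49.0 ± 4.72 CPM in Runx3 libraries (SD, n = 4 and 3), a log2 fold change of -0.11 ± 0.13 (SE). The peak chr6:40976944-40977529 had 6.62, 9.28, 9.60 and 8.43 CPM in the controls and 11.4, 6.95 and 16.6 CPM in the Runx3 libraries. Runx3 1 and Runx3 4 were above every control and Runx3 3 was not, and the log2 fold change was 0.43 ± 0.26 (SE). The peak chr6:40998654-40999061 had 4.96 ± 1.16 and 3.21 ± 0.57 CPM, with every Runx3 library below every control.

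In Tcrg, the smallest locus with peaks, chr13:19273809-19274660 was the strongest peak. It had 20.8, 22.8, 23.2 and 24.5 CPM in the controls and 29.2, 24.7 and 23.7 CPM in the Runx3 libraries, and its log2 fold change of 0.16 ± 0.16 (SE) was within the spread of the libraries. The peaks chr13:19269544-19269867 and chr13:19457517-19457845 had log2 fold changes of 0.31 ± 0.32 and -0.19 ± 0.37 (SE).

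The bounds of the intervals are part of the rule, so the peaks beside them are given with no test. The first peak inside Igh, chr12:114450582-114451029, had 5.02 ± 0.78 CPM in controls and 5.79 ± 0.42 CPM in Runx3 libraries (SD, n = 4 and 3). The first beyond its far end, chr12:117309506-117309872, had 4.78 ± 1.12 and 4.70 ± 1.94 CPM, a log2 fold change of -0.09. The first peak inside Tcra/d, chr14:53009720-53010498, and the last outside, chr14:52962404-52963601, had log2 fold changes of -0.01 and 0.16. On the log2 scale the fold change was -0.58 ± 0.44 (SE) for the first peak inside Igk, chr6:67460792-67461093, and 0.43 for the last inside Tcrb, chr6:41513146-41513569, with neither called.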

How the data were processed

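The table was deposited as unnormalized whole-number counts of reads for 7 libraries over 98723 peaks. The tools named are MACS2, Bowtie2, Picard, SAMtools, FastQC and Trim Galore and the build is mm9, per the submitters' processing notes. Not given in the sources used here are versions, the handling of reads matching several places, the making of the shared peak set and any transposase shift, nor whether starts count from 0 or 1. A GRCm38.p6 gene table supplied names and neighbours only. Sequences of the peaks were not analysed here.

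The whole-table test was the one of edgeR 4.0.16 (R 4.3.3), on the deposited counts (filterByExpr, minimum count 10 and minimum total 15; TMM; robust quasi-likelihood; Benjamini-Hochberg over all 57504 tested peaks, threshold 0.05). The SE of a log2 fold change is its absolute value divided by the square root of edgeR's quasi-likelihood F statistic. It is thus derived from the test and not fitted separately. A locus sum is the TMM-scaled CPM of all its peaks, and its log2 difference is the log2 of the ratio of group means. The boundary within Igh was set without an mm9 annotation. Levels of loci were compared with exact sign-change permutation tests. DESeq2 1.42.0, limma-voom 3.58.1, other scalings, filters, covariates and left-out libraries were alternatives. The edgeR test was checked on simulated counts.

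The members and lists were chosen with earlier results of these data known. Peaks are named if called, if among the 3 highest of a stretch, or if among its 2 smallest p (5 in the Igh variable part). Paired Tcra/d peaks, untested peaks named at the Igh constant end, edge peaks and windows singled out were chosen after their values were seen. Pairs of replicate libraries of a group differed by more than counting error alone gives, with a chi-square of 1.15 to 2.08 per degree of freedom.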

Additional observations from a re-analysis of the deposited data

Results flagged for a closer look

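The peak chr6:67484683-67485617 at the lower edge of Igk had 28.5 CPM in control 2, apart from 25.6, 25.9 and 26.0 CPM in the other controls. It was the single control value standing apart among 37 sets of control values examined, where chance gives about 1.85.

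The Igh variable peak chr12:116513691-116513890, which did not pass the filter on low counts, held 12 reads in Runx3 4, 2 in each of the other Runx3 libraries and 0 in every control. It was found by a search for peaks outside the tests with at least 10 reads in a Runx3 library and at least 4-fold the level of every control.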

How the results depend on the processing

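Of 222 recomputed counts, medians and sums, 200 stayed within the spread of the libraries or, for counts, within 1.5 times. The 2 members called lower became 5 without the low-count filter, 4 with the library division as a term, 1 with the library total as a covariate (an Igk peak, neither of the 2), and 0 with DESeq2 and with limma-voom. Leaving out 1 library gave 0 to 7, with 7 without control replicate 1, 1 without Runx3 replicate 4 and 0 without control 2, control 3, Runx3 1 or Runx3 3. The 0 called higher became 1 without the filter, the peak with 12 reads in Runx3 4. The peak chr12:116446187-116446481 was called in 7 of the 11 alternatives that gave it a value (adjusted p 0.000583 to 0.345 by edgeR or limma). It had no adjusted p from DESeq2 and was under the filter without control 2, 3 or 4. The peak chr12:116699016-116699724 was called in 7 of 15 (adjusted p 0.00138 to 0.313 by edgeR, DESeq2 or limma). Of 28 other named peaks 4 were called in 10 of 411 refits. In 15 refits, of 8 of these peaks, the fold change took the other sign, and 0 of those were called.

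The median log2 fold change of the Igh constant end was -0.37 with the library total as a covariate and -0.12 to 0.20 leaving out 1 library, with 0.20 without control 1. That of Igk was 0.032 without the filter. Among control 1, control 2 and Runx3 1 the summed log2 differences were -0.35 (Igh constant end), -0.25 (Igk), -0.036 (Tcra/d) and 0.21 (Tcrb). Among the other libraries they were 0.053 (Igk) and -0.30 (Tcra/d). For Igk the mean of log2(CPM + 1) over peaks gave 0.15. The cause was not tested. The Igh variable sum ran from -0.43 to -0.31 leaving out 1 library.

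Libraries of like number correlated in their deviations at 0.12, 0.10 and 0.07 for numbers 1, 3 and 4, so the numbers were not taken as pairs, although each Runx3 library correlated best with its own number. With the replicate block 3 members were called lower, and the differences were -0.33 (Igh variable sum), -0.20 (variable over constant) and -0.19 (Tcra/d). Depth limits single peaks: 197 of 360 members were too shallow to test.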
